A study of Mus musculus with 8 samples.

Results

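The 8 genes described here are Hif1a, Twist1 and Eef2, which earlier work by others connected with CPEB2, and 5 factors of the hypoxia response, Epas1, Arnt, Vegfa, Egln1 and Egln3. They were chosen by name, and each has 1 row among the 20586 rows (19889 gene symbols) of a table of 3' untranslated regions (3' UTRs). The table comes from RNA immunoprecipitation sequencing of freshly isolated, untreated mouse mammary cells, an assay that sequences the RNA pulled down by an antibody, here anti-CPEB2 (IP), and the RNA of the lysate it was taken from (Input). The 4 groups are KO IP, WT IP, KO Input and WT Input, with 2 libraries each from RIP experiments 2 and 3. KO cells lack Cpeb2 and WT cells are their wild-type counterpart, both labelled as strain C57BL/6J 129, and both genotypes went through the same antibody. The age of the mice, the deleted part of Cpeb2, the cells in which it was deleted and whether animals were pooled are not stated in the sources at hand. Mammary glands were digested with enzymes, red cells were lysed and an epithelium-enriched fraction was kept, and poly(A) RNA was selected in the Input samples alone. A difference of IP and Input therefore also holds the difference between selected and unselected RNA.

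CPEB2 binds U-rich elements in the 3' UTRs of mRNAs and regulates their poly(A) tails and translation. In cultured cells it was reported to bind the HIF1A 3' UTR and to hold back its translation together with eEF2, the protein encoded by Eef2, which moves the ribosome along the mRNA. In human breast cancer cells, isoforms of CPEB2 were reported to act on the mRNAs of TWIST1 and HIF1A. HIF1A and EPAS1 (also called HIF2A) are the oxygen-regulated subunits of the hypoxia-inducible factors and pair with ARNT on DNA. EGLN1 and EGLN3 are prolyl hydroxylases that mark the HIF subunits for degradation when oxygen is present, and VEGFA is a secreted vascular growth factor induced by HIF.

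An adjusted p was given for 7 of the 8 genes in the authors' deposited table, and not for Twist1. The difference between genotypes in recovery was read from the interaction in that table, which is the WT recovery (IP minus Input, log2) less the KO recovery, so that values above 0 mark a stronger recovery in WT. At an adjusted p of 0.05, 0 of the 7 passed the authors' Wald test (DESeq2) in the authors' deposited table, where 2.25% of the 5327 tested rows passed as higher in WT and 0% as lower. At an unadjusted p under 0.05, 2 of the 7 (Epas1 and Arnt) were higher in WT and 1 (Eef2) was lower in the authors' deposited table, beside 12.5% and 1.09% of all tested rows. The interactions of the 7 genes in the authors' deposited table ran from -0.85 for Eef2 to 1.04 for Arnt. Their median there was 0.06, with 5 of 7 above 0, and that of all tested rows was 0.23 with 65.1% above 0.

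The row of the knocked-out gene, Cpeb2, is given for comparison. Whether it measures how strongly a bound target is recovered was not tested. In the authors' values the Cpeb2 3' UTR stood at 7.43 in KO IP and 9.64 in WT IP, against 5.98 in KO Input and 6.11 in WT Input, on the scale of log2 of a normalized count plus 1. The authors' deposited table gave it an interaction of 2.12 ± 0.45 (SE; adjusted p = 0.00119 by the Wald test), with a 95% interval from 1.23 to 3.01. This call was lost with the trend over 3' UTR length removed (1.65, recomputed adjusted p = 0.0615). Its Input values were nearly equal, so this row does not check the genotype labels.

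**Figure D1:**
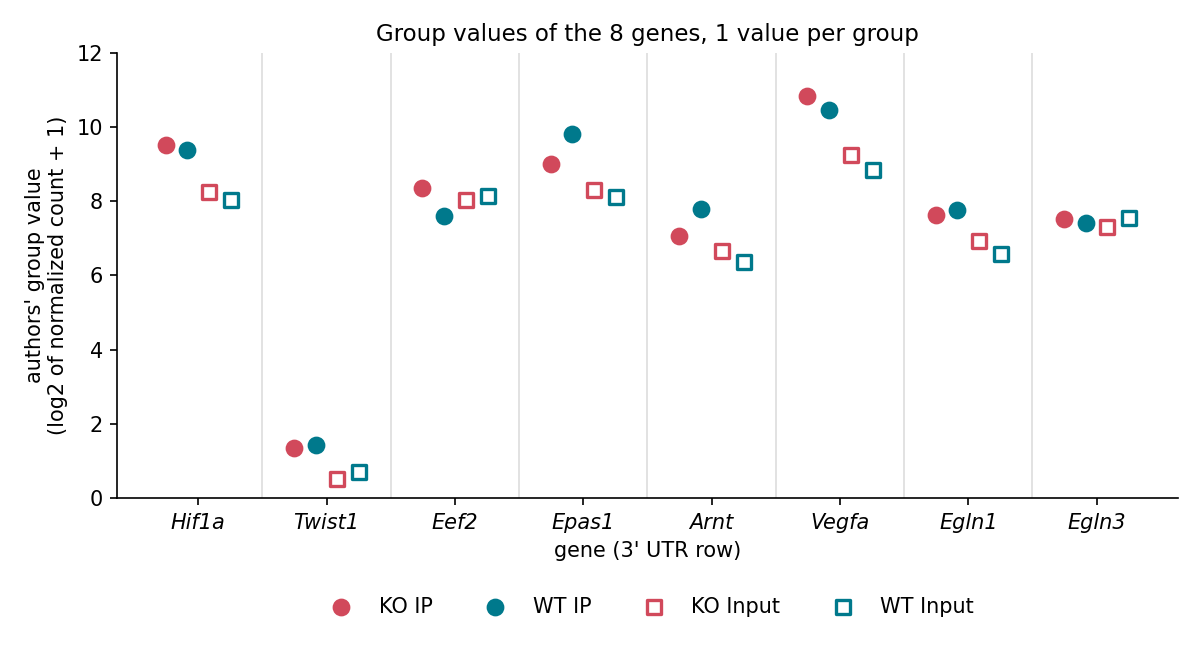
The authors' group values (log2 of normalized count plus 1, vertical axis) are drawn for each of the 8 genes, with KO left of WT, filled circles for IP and open squares for Input; each point is 1 value for a group of 2 libraries, with no error. Hif1a, Epas1, Arnt, Vegfa and Egln1 have both IP values above both Input values, Twist1 lies near the bottom of the scale, and in Eef2 the WT IP value, 7.62, is the lowest of its 4.

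Among the published targets, Hif1a was recovered with the antibody to nearly the same extent in both genotypes. Its row covers 1827 bases on chromosome 12, 73945704 to 73947530 (mm10, plus strand), the 3' UTR of transcript ENSMUST00000110461. The authors' values were 9.53 in KO IP and 9.38 in WT IP, against 8.26 in KO Input and 8.04 in WT Input. Both IP values thus lay above both Input values, and within each fraction the genotypes were close. Turned back to normalized counts, these are 739 and 664 in KO IP and WT IP, and 305 and 263 in KO Input and WT Input. IP exceeded Input by 1.27 in KO, a 2.42-fold recovery, and by 1.33 in WT, a 2.52-fold recovery. In the authors' deposited table the interaction came to 0.06 ± 0.34 (SE; adjusted p = 0.958 by the Wald test), with a 95% interval from -0.61 to 0.73. The interval allows a recovery in WT between 0.653-fold and 1.65-fold of that in KO, and its upper end lies below the lower end of the interval of Cpeb2. After the median of the tested rows was subtracted, the interaction of Hif1a changed sign, to -0.17. The RefSeq gene model Gm15283 spans the same interval, and since no source at hand says whether strand was used in counting, reads of both cannot be told apart.

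Eef2 had an interaction below 0. Its row is short, 425 bases on chromosome 10, 81182083 to 81182507 (plus strand; ENSMUST00000047864). The authors' values were 8.37 in KO IP and 7.62 in WT IP, against 8.04 in KO Input and 8.13 in WT Input. IP minus Input was thus 0.33 in KO and -0.52 in WT. KO minus WT was 0.75 in IP and -0.09 in Input, so nearly all of the difference lay in IP. For Eef2 the authors' deposited table gave an interaction of -0.85 ± 0.37 (SE; unadjusted p = 0.0235; adjusted p = 0.278 by the Wald test), with a 95% interval from -1.58 to -0.11. Only 2.29% of tested rows had a lower interaction than Eef2 in the authors' deposited table, in which the lowest adjusted p of any row lower in WT was 0.109 (Wald test). Short 3' UTRs lay lower in general. The running median at the length of Eef2 was -0.36, and with it subtracted the interaction of Eef2 was -0.49 (recomputed Wald adjusted p = 0.854).

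Twist1, a transcription factor of the epithelial-to-mesenchymal transition (EMT), could not be assessed. Its row holds 40 bases on chromosome 12, 33958599 to 33958638 (plus strand; ENSMUST00000049089), and the RefSeq gene (GRCm38.p6, the same assembly as mm10) runs 1193 bases beyond that end. The mean normalized count over all libraries was 1.73, against a minimum of 42.9 among tested rows. The authors' values were 1.34 in KO IP and 1.42 in WT IP, against 0.52 in KO Input and 0.71 in WT Input. All 4 correspond to fewer than 2 normalized counts. The authors' deposited table gave an interaction of -0.58 ± 2.96 (SE; unadjusted p = 0.845), with a 95% interval from -6.39 to 5.23, so that a difference between genotypes was not detectable at this depth and could not be bounded.

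The 2 DNA-binding partners Epas1 and Arnt stood highest of the 7 in the interaction. Epas1 lies on chromosome 17, with a row of 2308 bases from 86831103 to 86833410 (plus strand; ENSMUST00000024954). The authors' values were 9.0 in KO IP and 9.82 in WT IP, against 8.30 in KO Input and 8.13 in WT Input. The WT IP value was the highest of the 4, and KO minus WT was -0.82 in IP and 0.17 in Input. The recovery over Input was 1.62-fold in KO and 3.23-fold in WT. This gave an interaction of 1.0 ± 0.36 in the authors' deposited table (SE; unadjusted p = 0.00631; adjusted p = 0.146 by the Wald test), with a 95% interval from 0.28 to 1.71. With the running median over length subtracted it was 0.64 (recomputed Wald adjusted p = 0.716).

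Arnt, the shared partner subunit, followed the same order of groups at a lower count. Its row covers 1847 bases on chromosome 3, 95495394 to 95497240 (plus strand; ENSMUST00000090804). The authors' values were 7.07 in KO IP and 7.80 in WT IP, against 6.67 in KO Input and 6.37 in WT Input. KO minus WT was -0.74 in IP and 0.30 in Input, so part of the interaction lay in Input. The recovery over Input was 1.32-fold in KO and 2.70-fold in WT, with an interaction of 1.04 ± 0.44 in the authors' deposited table (SE; unadjusted p = 0.0165; adjusted p = 0.242 by the Wald test), with a 95% interval from 0.19 to 1.90. With the running median over length subtracted, the interaction of Arnt was 0.83 (recomputed Wald adjusted p = 0.659). The interactions of Epas1 and Arnt lay above 89.1% and 90.3% of those of all tested rows in the authors' deposited table. They were smaller than the smallest interaction among rows that passed there, 1.10.

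Markers of endothelial cells, in which EPAS1 is known to be abundant, also had a higher summed level in WT IP than in KO IP. All 12 listed endothelial markers had a row and none was at 0 in every group. Their summed normalized count was 1277 in KO IP and 2470 in WT IP, against 1804 in KO Input and 1661 in WT Input. Of 9 tested, 3 (Flt1, Sox18 and Cdh5) were called higher in WT and 0 lower in the authors' deposited table (Wald test; 5 higher and 0 lower at an unadjusted p under 0.05), with a median interaction of 0.86. Among all tested rows 2.25% were called higher, and 12.5% were higher at an unadjusted p under 0.05. With the median subtracted none of the 3 passed the recomputed Wald test (adjusted p = 0.0816 for Flt1, 0.163 for Sox18 and 0.210 for Cdh5). With the length trend removed Sox18 alone passed (adjusted p = 0.0213), and with p adjusted over every row Flt1 alone (adjusted p = 0.0270, against 0.109 for the other two). The list's part in the result of Epas1 was not tested. The summed count was lower in KO than in WT in IP and not in Input. In these bulk samples an Input level holds both the number of cells of a type and the RNA per cell, which cannot be told apart. An IP level also holds how much of that RNA was recovered with the antibody.

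Vegfa, the most strongly counted of the 8 genes, was recovered in both genotypes. Its row covers 1865 bases on chromosome 17, 46016993 to 46018857 (minus strand; ENSMUST00000024747), with a mean normalized count of 1077, above 99.4% of tested rows. The authors' values were 10.83 in KO IP and 10.46 in WT IP, against 9.25 in KO Input and 8.86 in WT Input. IP stood above Input by 1.57 in KO (2.98-fold) and by 1.61 in WT (3.04-fold), and KO was above WT by nearly as much in IP (0.37) as in Input (0.40). The authors' deposited table gave an interaction of 0.03 ± 0.32 (SE; adjusted p = 0.977 by the Wald test), with a 95% interval from -0.60 to 0.66. After subtraction of that median it changed sign, to -0.20. The interval of Vegfa, like that of Hif1a, ended below the lower end of that of Cpeb2, and its standard error was the smallest of the 7.

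The group values of the 2 prolyl hydroxylases, whose difference was not tested, are given in turn. Egln1 covers 2112 bases on chromosome 8, 124908596 to 124910707 (minus strand; ENSMUST00000034469), and its authors' values were 7.62 in KO IP and 7.77 in WT IP, against 6.92 in KO Input and 6.58 in WT Input. Its IP lay above Input in both genotypes, by 0.71 in KO and 1.19 in WT, and the genotypes differed more in Input (0.34, KO minus WT) than in IP (-0.14). For the interaction the authors' deposited table gave 0.50 ± 0.42 (SE; adjusted p = 0.664 by the Wald test; 95% interval from -0.34 to 1.33), and 0.27 after the same subtraction. Egln3 covers 1643 bases on chromosome 12, 54178981 to 54180623 (minus strand; ENSMUST00000039516), and its authors' values were 7.54 in KO IP and 7.42 in WT IP, against 7.30 in KO Input and 7.54 in WT Input. All 4 values lay close together, with IP above Input by 0.23 in KO and a difference of -0.12 in WT. There the authors' deposited table gave an interaction of -0.35 ± 0.42 (SE; adjusted p = 0.777 by the Wald test; 95% interval from -1.18 to 0.48), and -0.58 after that subtraction. The intervals of the 2 genes overlap.

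**Figure D2:**
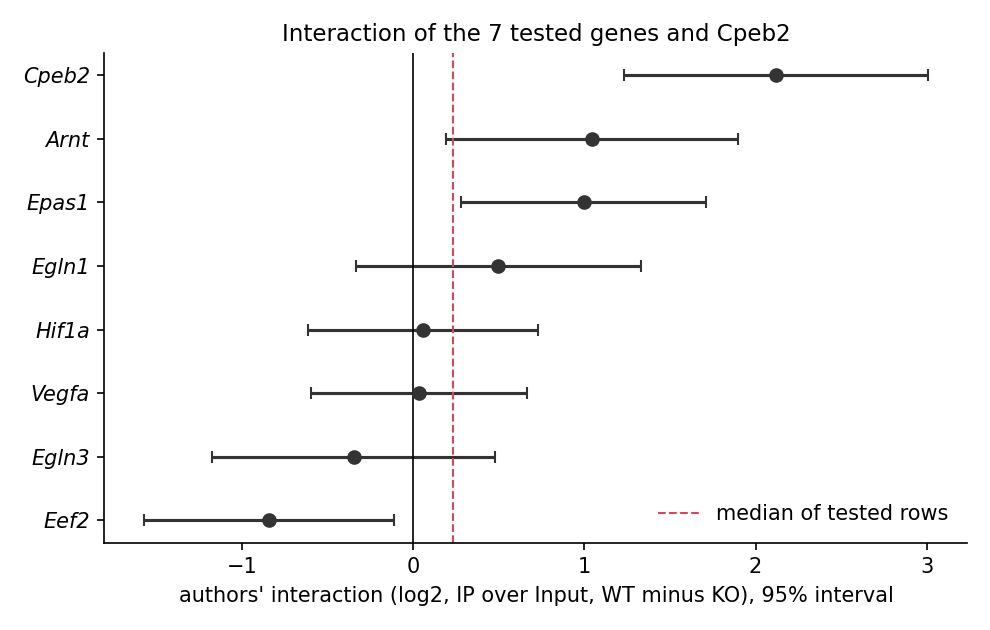
Each point is the interaction in the authors' deposited table (horizontal axis, log2, WT minus KO) with its 95% interval, for the 7 tested genes and Cpeb2. Cpeb2 lies at 2.12, the intervals of Arnt, Epas1 and Eef2 do not cross 0, and those of Egln1, Hif1a, Vegfa and Egln3 do. The intervals are not adjusted for the number of rows tested, and 0 of the 7 genes passed the Wald test at an adjusted p of 0.05. The dashed line is the median of all tested rows, 0.23, which lies within the interval of Arnt.

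Recovery is taken here from the authors' group values alone, which carry neither an error nor a test, and was counted where they reached 1 on the log2 scale. In KO, 2 of the 7 (Hif1a and Vegfa) were recovered by at least 1, beside 17% of all tested rows, and all 7 lay above 0, beside 55.6%. In WT, 5 of the 7 (all but Eef2 and Egln3) were recovered by at least 1, beside 28.1%, and 5 lay above 0, beside 59.1%. Hif1a and Vegfa passed 1 in both genotypes, as did 15.1% of tested rows. Eef2 and Egln3 lay above 0 in KO and below 0 in WT, as did 5.89% of tested rows. In KO the recovery of Hif1a exceeded that of 89.8% and that of Vegfa 95.1% of tested rows, and in WT these shares were 81.0% and 86.8%. Between genotypes, 0 of the 7 differed by 1 or more in either fraction. Among all tested rows 6.78% were lower and 0.845% higher in KO by that much in IP, and 0% and 0.188% in Input.

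**Figure D3:**
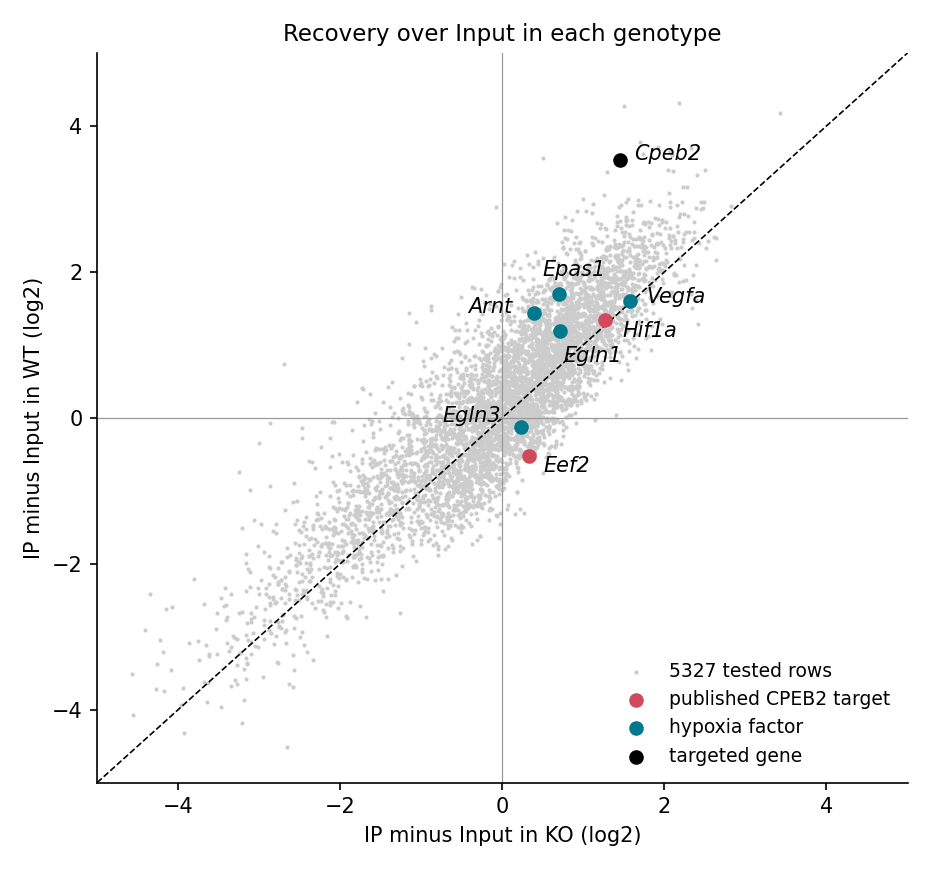
IP minus Input in KO (horizontal axis, log2) is set against IP minus Input in WT (vertical axis, log2) for the 5327 tested rows in grey, the 7 tested genes and Cpeb2; the dashed line marks equal recovery. Hif1a (1.27 and 1.33) and Vegfa (1.57 and 1.61) lie on the line, Epas1 (0.70 and 1.69), Arnt (0.40 and 1.43) and Cpeb2 (1.45 and 3.53) above it, and Eef2 (0.33 and -0.52) below it.

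Per length of 3' UTR, the 8 genes had the same order of levels in both Inputs. In normalized counts per kilobase of 3' UTR, Eef2 stood at 617 in KO Input and 658 in WT Input, and Vegfa at 327 in KO Input and 248 in WT Input. Hif1a followed with 167 in KO Input and 144 in WT Input, and Epas1 with 136 and 121 in the same order. Egln3 had 95.5 in KO Input and 113 in WT Input, and Egln1 (56.7 and 44.7) and Arnt (54.6 and 44.4) were nearly equal. Twist1 was lowest with 10.7 in KO Input and 15.8 in WT Input, from its 40 bases. The median of tested rows was 60.2 in KO Input and 56.5 in WT Input. The authors' group values carry no error, so that the order of close neighbours, such as Epas1 and Egln3 in WT Input or Egln1 and Arnt in either, is not resolved. In the IP groups Vegfa was highest, at 975 in KO IP and 756 in WT IP, and Eef2 next, at 775 in KO IP and 459 in WT IP. Epas1 and Hif1a exchanged places between genotypes, with 221 and 405 in KO IP and 391 and 363 in WT IP.

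The interaction varied with 3' UTR length over the whole table. The running median over 401 rows neighbouring in length was -0.36 at the length of Eef2 and between 0.22 and 0.35 at the lengths of the 6 other tested genes, whose rows run from 1643 to 2308 bases. Among these 6 the interaction in the authors' deposited table ran from -0.35 ± 0.42 (SE) for Egln3 to 1.04 ± 0.44 (SE) for Arnt. Their 95% intervals, -1.18 to 0.48 for Egln3 and 0.19 to 1.90 for Arnt, overlap. Differences among the 6 were not tested.

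**Figure D4:**
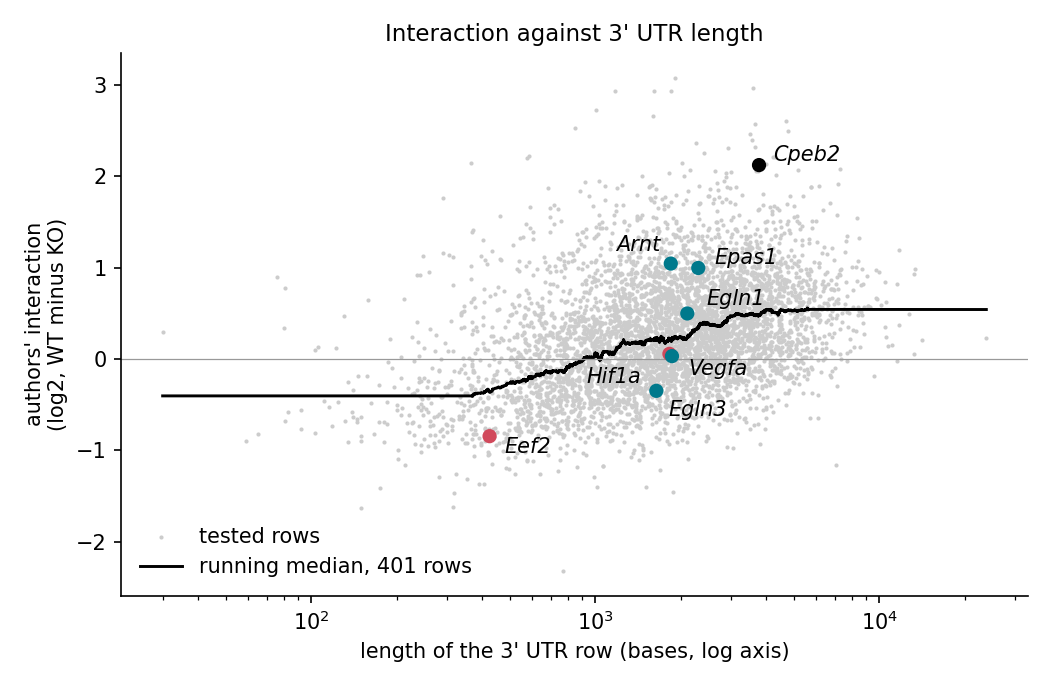
The interaction in the authors' deposited table (vertical axis, log2, WT minus KO) is plotted against the length of the 3' UTR row (bases, log axis) for all tested rows in grey, with the 7 tested genes and Cpeb2 in colour and black. The black line is the running median over 401 rows: Eef2 lies on the short side below it, and Arnt and Epas1 lie above it.

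Other genes of these pathways were read from 5 lists, which leave out the 8 genes. Of the HIF pathway list (further HIF subunits, oxygen sensors and degradation factors) 17 genes had a row and 12 were tested, with 0 called in either direction in the authors' deposited table (Wald test; 2 higher and 0 lower in WT at an unadjusted p under 0.05). Of all tested rows 2.25% were called higher, and 12.5% were higher and 1.09% lower at that unadjusted p. Beside a median of 0.23 and 65.1% above 0 over all tested rows, the list had a median interaction of 0.21 and 7 of 12 above 0. The smallest p-values there belonged to the ubiquitin ligase genes Siah2, with 1.79 ± 0.64 (SE; Wald adjusted p = 0.138) and Siah1a with 1.06, and to the chaperone gene Hsp90aa1 with -0.74, all in the authors' deposited table. Both ligases are known to act on the EGLN hydroxylases.

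Genes known to be induced in hypoxia lay on both sides of 0. Of 25 tested, 1 was higher in WT (Ddit4, an inhibitor of mTORC1 signalling), 0 were lower and 24 did not pass in the authors' deposited table (Wald test). Among all tested rows 2.25% were called higher. The list's median was 0.08 with 15 above 0, beside 0.23 and 65.1% over all tested rows. Ddit4 had authors' values of 8.44 in KO IP and 9.45 in WT IP, against 7.80 in KO Input and 7.63 in WT Input. The authors' deposited table gave it an interaction of 1.18 ± 0.36 (SE; adjusted p = 0.0453 by the Wald test), and it no longer passed with the median subtracted (0.95, recomputed adjusted p = 0.258), with the length trend removed (1.22, recomputed adjusted p = 0.0977) or once p was adjusted over every row (recomputed adjusted p = 0.141). The next by p were glycolytic enzymes, Eno1 with -1.25 (Wald adjusted p = 0.287) and Ldha with -0.87 (Wald adjusted p = 0.332) in the authors' deposited table. Pgk1, named after its values were seen, had -1.05 there, and these 3 of 25 were the members of the list lower in WT at an unadjusted p under 0.05, beside 1.09% of all tested rows. Their 3' UTRs are short, 324, 486 and 420 bases for Eno1, Ldha and Pgk1, and the running median at these lengths was -0.40, -0.29 and -0.34. With it subtracted their recomputed Wald adjusted p-values ran from 0.799 to 0.852.

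Other genes of the VEGF system were mostly above 0. Of 5 tested ligands, receptors and coreceptors, 1 was called higher in WT (the receptor gene Flt1), beside 2.25% of all tested rows. The other 4 did not pass the Wald test in the authors' deposited table. The median there was 1.20, and 4 of 5 lay above 0, beside 65.1% of all tested rows. The fifth, the ligand gene Pgf, named after its values were seen, had -0.86 there. Flt1 had 1.49 ± 0.37 (SE; Wald adjusted p = 0.00861), the coreceptor gene Nrp2 1.20 (Wald adjusted p = 0.140) and the receptor gene Kdr 1.24 (Wald adjusted p = 0.178) in the authors' deposited table. Flt1 did not pass with the median subtracted (1.26, recomputed adjusted p = 0.0816) or with the length trend removed (0.97, recomputed adjusted p = 0.329). Flt1 and Kdr are also on the endothelial list above, and the part of cell makeup in these values was not tested. No test set the list against Vegfa.

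EMT factors other than Twist1 were tested for 6 of 12 rows. All 6 had an interaction above 0 with a median of 0.79, beside 65.1% above 0 and a median of 0.23 over all tested rows. None passed the Wald test in the authors' deposited table, beside 2.25% of all tested rows called higher and 0% lower. At an unadjusted p under 0.05, 1 was higher and 0 were lower in WT, beside 12.5% and 1.09% of all tested rows. With 6 rows tested, the absence of calls does not set these factors apart from all tested rows. Tcf12, a partner of basic helix-loop-helix factors, had 1.17 (Wald adjusted p = 0.146), and the zinc finger repressors Zeb2 and Zeb1 had 0.79 each in the authors' deposited table. These 3 have long 3' UTRs, at whose lengths the running median was 0.51 for Tcf12, 0.53 for Zeb2 and 0.39 for Zeb1. Fibroblasts are known to express several EMT factors. The fibroblast markers had 8 of 8 tested and a median of -0.35, with 1 above 0, beside 65.1% of all tested rows. Their summed normalized count was 4019 in KO IP and 2812 in WT IP, against 3481 in KO Input and 2982 in WT Input. The part of fibroblasts in the values of the EMT factors was not tested.

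Among translation elongation genes, 6 of 15 rows were tested. Of these, 3 had an interaction above 0 with a median of -0.11, beside 65.1% and 0.23 over all tested rows. None of the 6 passed the Wald test in the authors' deposited table, beside 2.25% of all tested rows called higher and 0% lower. At an unadjusted p under 0.05, 0 were higher and 1 was lower in WT, beside 12.5% and 1.09% of all tested rows. With 6 rows tested, the absence of calls does not set the list apart from all tested rows. The factors Eif5a, with -0.83 ± 0.36 (SE; Wald adjusted p = 0.275), and Eef1a1, with -0.79 ± 0.40 (SE; Wald adjusted p = 0.369), had values near that of Eef2 in the authors' deposited table. Both had the order of groups seen in Eef2. Their 3' UTRs are short, 628 bases for Eif5a and 285 for Eef1a1, and the running median at these lengths was -0.18 and -0.40. With it subtracted their recomputed Wald adjusted p-values were 0.689 for Eif5a and 0.916 for Eef1a1. The authors' values were 8.45 in KO IP and 7.73 in WT IP for Eif5a, against 8.04 in KO Input and 8.15 in WT Input, and 8.0 in KO IP and 7.26 in WT IP for Eef1a1, against 7.54 in KO Input and 7.58 in WT Input. Dph6, an enzyme of the diphthamide modification that eEF2 carries, was the third by p with 0.68 in the authors' deposited table and did not pass.

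**Figure D5:**
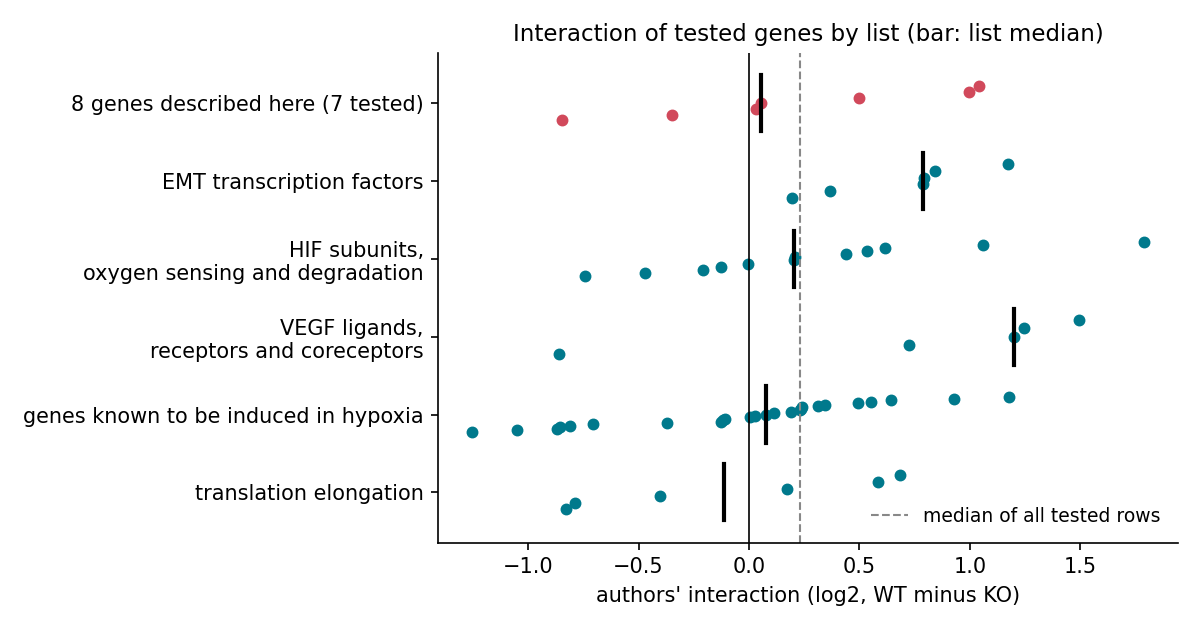
Each point is the interaction of 1 tested gene in the authors' deposited table (horizontal axis, log2, WT minus KO), with the 7 tested genes on top and the 5 pathway lists under them; the heavy bars are list medians and the dashed line is the median of all tested rows, 0.23. The medians run from -0.11 for translation elongation to 1.20 for the VEGF system, beside 0.06 for the 7 genes.

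The rows most like each gene were found by the distance between the 4 group values after each row's mean was taken out, which compares the pattern over groups and not the level. Nearest to Hif1a were Ip6k1 (distance 0.05) and Ociad1 (0.05), and nearest to Vegfa were Peg10 (0.10) and Rbm33 (0.12). Nearest to Epas1 were Agpat3 (0.05) and Kctd10 (0.06), and nearest to Arnt were Mtpn (0.03) and Elmsan1 (0.04). Egln1 was closest to Sema4c (0.01) and S100pbp (0.05). Egln3 was closest to Hilpda (0.05), a lipid droplet protein gene known to be induced in hypoxia, and Actr1a (0.06), and Eef2 to Clk1 (0.08) and the translation factor gene Eif5a (0.09). With 4 values per row such likeness is a description only.

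The cell type label was checked against markers. All 8 luminal and all 6 basal epithelial markers were tested rows, with summed normalized counts of 3813 and 557 in KO IP, 4541 and 582 in WT IP, 3782 and 690 in KO Input, and 3449 and 795 in WT Input. Markers of other cells were present too. Their sums in KO Input and WT Input were 3481 and 2982 for fibroblasts and 1804 and 1661 for endothelial cells. They were 228 and 155 for leukocytes, 230 and 211 for adipocytes and 128 and 90.9 for red cells. None of these markers with a row was at 0 in every group. The luminal sum includes Prlr, whose mean normalized count over all libraries was 2477, so that this gene alone holds most of that sum. Such sums are not shares of cells.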

How the data were processed

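The authors deposited 1 table of 3' UTR rows on mm10. Per the submitters' processing notes, Bowtie 0.12.9, Bowtie2 2.2.2 and DESeq2 were used, without roles, and no source at hand states the counting rule or its use of strand. The deposited group values are log2 values, 1 per group, whose behaviour is that of log2(normalized count + 1). The mean normalized count is a signal computed by the authors, per the file headers. The authors' interaction (a log2 fold change), its SE, Wald score, p-value and adjusted p-value, per the file headers, were used as deposited. Its direction follows the difference of the group values (Spearman correlation across rows 0.998). The authors' adjustment covers 5327 rows, whose lowest mean normalized count is 42.9.

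A further 8 columns hold single libraries named by sequencing index, which the labels do not pair with samples. They were not used, so the planned count test, the depth per library and values per sample are not given here. Precision rests on the authors' SE (0.322 to 0.435 for the 7 tested genes), and 95% intervals are 1.96 SE. The 2 libraries of a group came from separate RIP experiments (2 and 3) and carry the numbers 3 and 4 after the genotype. The labels do not say that they came from different animals. The spread behind the p-values may therefore hold no difference between animals. Alternatives were another adjustment, zero point, length trend, threshold and a pseudocount of 8, and the Wald and adjustment steps were tested on simulated data. The simulation drew its errors from the authors' SE and planted changes larger than any interaction of the 7 genes. It therefore cannot show whether that SE holds or how often changes of their size are found.

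The genes and lists were chosen with earlier results of these data known. Named are all 8 genes, up to 3 genes per pathway list by p, the endothelial markers with the smallest p, the 2 rows nearest each tested gene, and Cpeb2. Gene spans come from RefSeq (GRCm38.p6), where all 8 genes matched. No 3' UTR sequence was used here. The scripts ran under Python 3.11.15 with scipy 1.17.1, pandas 2.3.3, numpy 2.4.6 and matplotlib 3.10.9.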

Additional observations from a re-analysis of the deposited data

Results flagged for a closer look

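For 5 of the genes named above the recovery over Input differed between genotypes by the test of that difference itself, the interaction in the authors' deposited table at an adjusted p of 0.05. They are Cpeb2 with 2.12 (Wald test, adjusted p = 0.00119), Sox18 with 2.14, Flt1 with 1.49, Cdh5 with 1.32 and Ddit4 with 1.18, all higher in WT in the authors' deposited table. Not all of these calls held under the recomputed Wald tests. With the median subtracted Cpeb2 alone passed, and with the length trend subtracted Sox18 alone (Cpeb2 had an adjusted p of 0.0615). With every row in the adjustment Cpeb2 and Flt1 passed, and Sox18 and Cdh5 (adjusted p = 0.109 each) and Ddit4 (adjusted p = 0.141) did not. None of the 8 genes described is among the 5. Sox18 and Cdh5 shared the value 0.0347 as their Wald test's adjusted p in the authors' deposited table.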

How the results depend on the processing

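None of the 7 tested genes passed under any of the 4 alternatives with a test, namely every row in the adjustment, the median or the length trend subtracted, and a threshold of 0.10. Hif1a and Vegfa changed sign with the median subtracted (-0.17 and -0.20) and with the length trend subtracted (-0.16 and -0.19). Eef2 (-0.49 with the length trend subtracted), Epas1, Arnt, Egln1 and Egln3 kept their sign in all. Cpeb2 no longer passed with the length trend subtracted (1.65, recomputed Wald test, adjusted p = 0.0615). The 120 rows called higher in WT in the authors' deposited table became 47 with every row in the adjustment, 30 with the median subtracted, 17 with the length trend subtracted and 169 at a threshold of 0.10, and 0 were lower in each. The interaction rebuilt from the group values moved by less than 1 SE for all named genes for which it was computed. A pseudocount of 8 moved each of the 28 differences of group values by less than the SE of the interaction divided by the square root of 2, the spread used for lack of replicate values. Subtracting the median moved the WT recovery of Hif1a, Eef2, Epas1 and Vegfa by more, to 1.05, -0.80, 1.41 and 1.32. No paired analysis was possible because the columns of single libraries carry no label of the sample. Leaving out each replicate and a fit without the filter on low counts were not run for the same reason. Depth limits Twist1 most, with a mean normalized count of 1.73.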
